A study of Mus musculus with 6 samples.

Results

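The 8 genes Cyp51, Tm7sf2, Msmo1, Nsdhl, Hsd17b7, Ebp, Sc5d and Dhcr7 encode the enzymes that carry lanosterol towards cholesterol, and their mRNA was compared between MA-10 cells and cells that lack STAR. They were taken by gene symbol from a count table of 14774 genes. All 8 were present, and all 8 were among the 11939 genes with enough counts to be tested. MA-10 is a mouse tumor Leydig cell line that makes progesterone from cholesterol. The 3 MA-10 libraries came from wild type cells, and the 3 STARKO1 libraries came from a single clone of MA-10 in which exon 2 of Star had been targeted with CRISPR/Cas9. STARKO1 is 1 clone, so the loss of Star and any other property of that clone cannot be told apart. Cells of both lines were grown normally and left untreated, without hormone. Total RNA was sequenced, and no source says that the 3 libraries of a line came from separate cultures, so p values measure only the spread between these libraries, which may be technical.

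Cholesterol synthesis starts from acetyl-CoA, passes through mevalonate and squalene, and closes the sterol ring at lanosterol. The enzymes after lanosterol remove methyl groups from the ring, move its double bond, and reduce side-chain and ring bonds until cholesterol is left. Most genes of the pathway are known targets of SREBP2, a transcription factor that is released from the endoplasmic reticulum when membrane sterol is low and that binds together with NF-Y and Sp1. In Leydig cells the free cholesterol that STAR brings to the mitochondria comes from lipoproteins, stored esters and this synthesis.

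RefSeq start regions on GRCm38.p6 were read for all 8 genes, 10 in all because Dhcr7 has 3 starts. Each covers 250 bases before the start and 50 after it. The 180 bases before the start are shown 5′ to 3′ for 5 genes: Cyp51 and Tm7sf2, the enzymes whose mRNA rose, Hsd17b7, which had the next largest fold change, and Sc5d and Dhcr7, which had the smallest. Capitals mark CCAAT, the box read by NF-Y, or ATTGG, its letters on the opposite strand. The regions are chr5:4104698-4104877, chr19:6067851-6068030, chr1:169969206-169969385 and chr9:42264301-42264480 on the minus strand, and chr7:143830034-143830213 on the plus strand at the third start of Dhcr7.
Cyp51: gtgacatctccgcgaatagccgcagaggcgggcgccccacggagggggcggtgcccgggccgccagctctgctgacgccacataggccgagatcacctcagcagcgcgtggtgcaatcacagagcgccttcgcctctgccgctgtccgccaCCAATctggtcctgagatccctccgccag
Tm7sf2: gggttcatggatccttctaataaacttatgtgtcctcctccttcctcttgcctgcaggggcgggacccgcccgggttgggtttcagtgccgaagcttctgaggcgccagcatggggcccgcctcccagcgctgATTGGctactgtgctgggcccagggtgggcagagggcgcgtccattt
Hsd17b7: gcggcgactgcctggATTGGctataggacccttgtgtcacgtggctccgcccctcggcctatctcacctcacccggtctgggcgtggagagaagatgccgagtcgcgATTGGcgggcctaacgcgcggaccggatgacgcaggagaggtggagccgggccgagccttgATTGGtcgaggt
Sc5d: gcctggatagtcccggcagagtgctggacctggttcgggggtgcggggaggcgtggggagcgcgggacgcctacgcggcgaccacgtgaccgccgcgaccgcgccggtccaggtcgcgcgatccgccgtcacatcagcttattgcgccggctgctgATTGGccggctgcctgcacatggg
Dhcr7: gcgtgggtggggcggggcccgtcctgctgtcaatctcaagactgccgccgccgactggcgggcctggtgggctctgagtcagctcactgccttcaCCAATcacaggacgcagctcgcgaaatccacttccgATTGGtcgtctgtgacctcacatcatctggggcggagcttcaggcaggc

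The box lies 29 to 25 bases before the start of Cyp51, 47 to 43 before that of Tm7sf2 and 24 to 20 before that of Sc5d. Bases shortly after the RefSeq start of Sc5d and Nsdhl were found in no GENCODE transcript of the gene. Positions in these genes therefore rest on the RefSeq start alone. The upstream sequence of Hsd17b7 holds 3 boxes and that of Dhcr7 holds 2. Across the whole windows CCAAT was found on either strand in 8 of 8 genes, against 43.6% of 9792 genes of the table with a RefSeq window, and in 37.4% of all 32851 windows. For Dhcr7 it was found at the third start and not at the other 2. GGGCGG, the GC box, was also found in 8 of 8 genes, against 68.6% of those genes. TCACNCCAC, written for 1 spelling of the sterol regulatory element, was found in 0 of 8 genes, against 1.37%. At so low a share, 0 of 8 was likely for any genes. It does not show that the element is missing, and other spellings were not searched. All these counts are of matching letters on both strands, no match overlapped another, and binding was not measured. The boxes did not separate the enzymes that rose from the others.

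**Figure D1:**
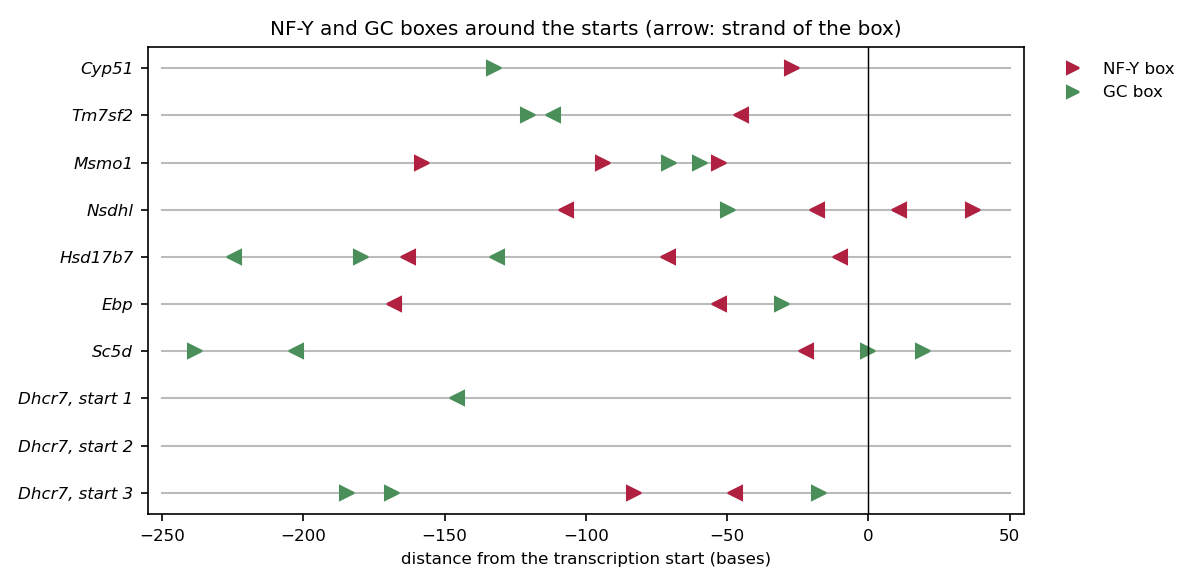
NF-Y boxes (CCAAT) and GC boxes (GGGCGG) in the 10 RefSeq start windows of the 8 genes, by distance from the transcription start in bases, with arrows for the strand of the box. An NF-Y box is present in every window except the first and second start of Dhcr7.

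The libraries held between 14114351 and 19530062 estimated counts in MA-10 and STARKO1. Levels are given as CPM, counts scaled to a common library size, here a size adjusted by TMM, a method that lines up libraries on the bulk of their genes. Its factors were 1.155, 0.654 and 0.805 in MA-10 and 1.191, 1.176 and 1.173 in STARKO1. Every STARKO1 factor was thus above every MA-10 factor, and the scaling bears on the difference between the lines. Star itself had 1064, 1261 and 697 counts in MA-10 and 48, 46 and 36 in STARKO1. MA-10 replicate 1 stood apart from its own line: its log2 CPM correlated at 0.802 and 0.874 with the other MA-10 libraries and at 0.949 to 0.955 with STARKO1 over 8538 genes, while MA-10 replicates 2 and 3 correlated at 0.974. The fold change of each enzyme is therefore also given without it. All 10 Leydig cell markers were tested, and their summed level was 1611 to 2130 CPM in MA-10 and 1617 to 1677 CPM in STARKO1. The sum hides opposite moves, with a log2 fold change above 0 for 5 markers and below 0 for 5. Cyp11a1 measured 835 ± 259 CPM in MA-10 and 439 ± 9.94 CPM in STARKO1 (edgeR adjusted p = 0.0670). Nr5a1 measured 472 ± 90.9 CPM in MA-10 and 633 ± 22.8 CPM in STARKO1 (edgeR adjusted p = 0.189). Of the 10 markers only Hsd3b1, a steroid dehydrogenase, was called, lower in STARKO1 (log2 fold change -2.52, edgeR adjusted p = 0.00268, and 2.62e-05 without MA-10 replicate 1). With all 6 libraries, 9.04% of all genes were called in either direction. Markers of other testis cells were low or at like levels, with 2 exceptions. The endothelial pair Cdh5 and Pecam1 summed to 26.4 to 41.5 CPM in MA-10 and 118 to 124 CPM in STARKO1, almost all of it Cdh5, and the fibroblast pair Pdgfra and Myh11 summed to 3.12 to 7.66 CPM and 0.337 to 0.430 CPM. Of the others, 1 of 6 Sertoli, 1 of 4 germ cell and 2 of 4 macrophage markers were in the table, at up to 20.2, 3.55 and 9.85 CPM. Their part in the results was not tested.

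Of the 8 enzymes, 2 rose in STARKO1 at an adjusted p under 0.05 and none fell. They were Cyp51 and Tm7sf2, which act one after the other in removing the first methyl group and the double bond it leaves. Each was about 2.00-fold higher by mean CPM. Hsd17b7 was 1.87-fold higher and missed the threshold, Msmo1 was 1.39-fold higher, and Nsdhl, Ebp, Sc5d and Dhcr7 lay between 1.08-fold and 1.22-fold. Over all genes tested, 4.3% rose and 9.04% changed in either direction by the same test, the quasi-likelihood test of edgeR, adjusted over the whole table by the Benjamini-Hochberg method. The fitted log2 fold change was above 0 for 8 of 8 enzymes, against 47.1% of all genes, and its median was 0.38 against -0.05. The unadjusted p was under 0.05 for 3 of 8 enzymes, all higher in STARKO1. That was so for 37.6% of all genes, and for 15% with STARKO1 higher. In bulk RNA, more cells expressing a gene and more of its RNA per cell cannot be told apart.

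**Figure D2:**
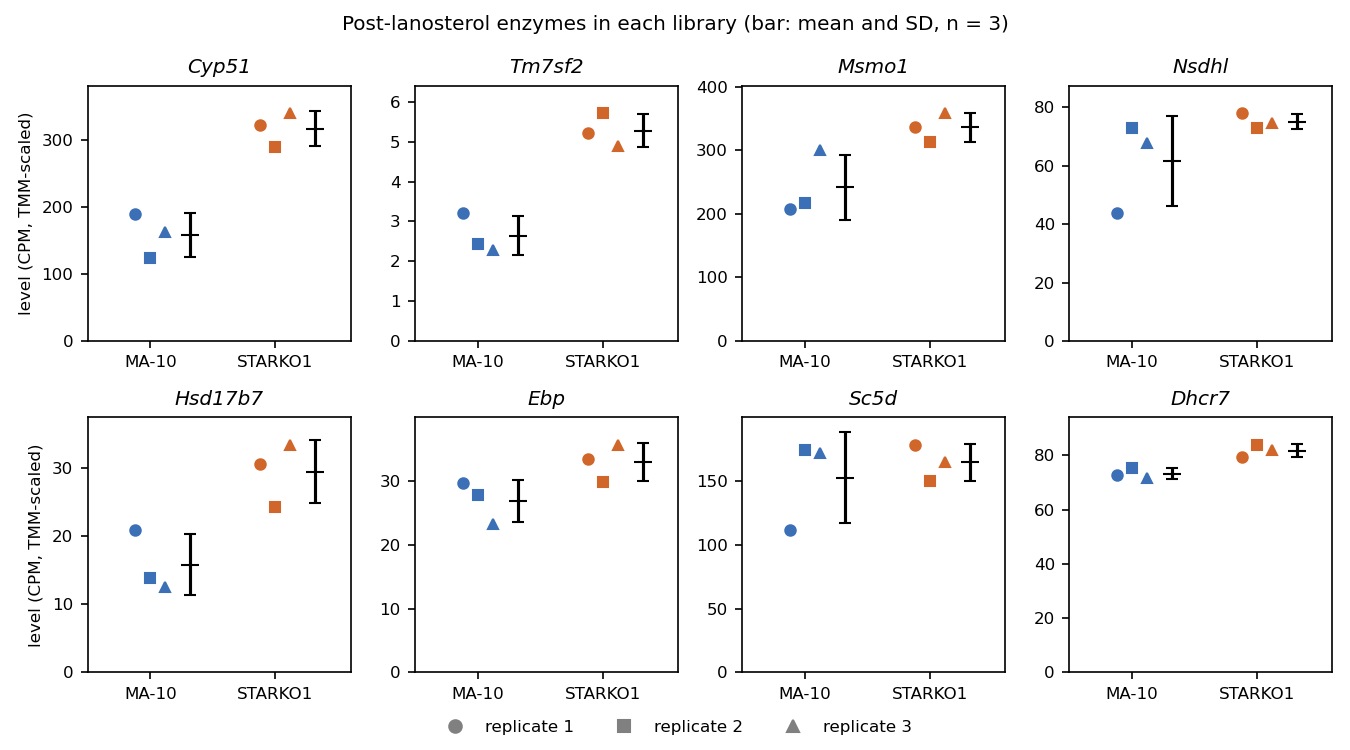
Level of each enzyme in every library in TMM-scaled CPM, with circles, squares and triangles for replicates 1, 2 and 3 and a bar for the mean and SD of 3 libraries. The cell lines do not overlap for 6 enzymes and overlap for Nsdhl and Sc5d.

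Cyp51 encodes lanosterol 14α-demethylase, the cytochrome P450 that opens the post-lanosterol pathway. Its gene lies at chr5:4081145-4104746 on the minus strand (mm10). In order of replicate number, it measured 190, 124 and 163 CPM in MA-10 and 323, 290 and 341 CPM in STARKO1. Every STARKO1 library stood well above every MA-10 library. Mean levels were 159 ± 33.1 CPM for MA-10 and 318 ± 25.6 CPM for STARKO1 (SD, n = 3). On the log2 scale this was a difference of 1.00 (SE 0.213, 95% interval 0.49 to 1.50, edgeR adjusted p = 0.0385). A stretch of 166 bases of the gene's annotated span is shared with Akap9 on the opposite strand, which measured 232 ± 71.7 CPM in MA-10 and 146 ± 9.29 CPM in STARKO1 (edgeR adjusted p = 0.109), in the opposite direction to Cyp51. Without MA-10 replicate 1 the log2 fold change of Cyp51 was 1.23 with an edgeR adjusted p of 0.000299. Leaving out any other single library gave 0.85 to 1.07 and adjusted p values from 0.0559 without MA-10 replicate 2 to 0.189 without STARKO1 replicate 3, so no such fit called it.

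Tm7sf2 encodes the sterol C14-reductase that takes the product of Cyp51, and lies at chr19:6062821-6068373 on the minus strand. It was the least abundant of the 8, with 56, 28 and 26 counts in MA-10 and 121, 97 and 87 in STARKO1. These are 3.21, 2.43 and 2.29 CPM in MA-10 and 5.22, 5.72 and 4.89 CPM in STARKO1, with no overlap. The mean rose from 2.64 ± 0.494 CPM to 5.28 ± 0.417 CPM, a log2 fold change of 0.98 (SE 0.229, 95% interval 0.44 to 1.53, edgeR adjusted p = 0.0465). The annotated span shares 532 bases with Vps51 on the same strand, so reads could have been divided between the genes and the level of Tm7sf2 is uncertain to that extent. Vps51 measured 26.5 ± 5.74 CPM in MA-10 and 27.1 ± 1.73 CPM in STARKO1, with an interval of -0.43 to 0.49 for its log2 fold change. Without MA-10 replicate 1 the log2 fold change of Tm7sf2 was 1.25 and the edgeR adjusted p 0.00102. Without any other library it was 0.89 to 1.08, with adjusted p values from 0.0905 without MA-10 replicate 2 to 0.196 without STARKO1 replicate 2. The second C14-reductase of mammals, Lbr, which is also a lamin receptor of the nuclear envelope, measured 40.0, 58.3 and 44.5 CPM in MA-10 and 49.1, 46.5 and 51.6 CPM in STARKO1, overlapping values with a log2 fold change of 0.05 (edgeR adjusted p = 0.868, and 0.872 without MA-10 replicate 1).

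Msmo1, Nsdhl and Hsd17b7 encode the oxidase, the decarboxylating dehydrogenase and the ketoreductase that together remove the paired methyl groups at carbon 4. Msmo1 (chr8:64718139-64733792, minus strand) measured 207, 218 and 301 CPM in MA-10 and 336, 313 and 358 CPM in STARKO1. All 3 STARKO1 libraries were higher, the lowest by a small margin over MA-10 replicate 3. Its log2 fold change of 0.47 (SE 0.211, 95% interval -0.02 to 0.97) had an edgeR adjusted p of 0.148. It was 0.46 without MA-10 replicate 1, with an edgeR adjusted p of 0.0393. Nsdhl (chrX:72918557-72958514, plus strand) measured 43.9, 72.9 and 68.0 CPM in MA-10 and 78.0, 72.9 and 74.6 CPM in STARKO1. MA-10 replicate 1 lay far below the other 5 libraries, and MA-10 replicate 2 fell among the STARKO1 values. The log2 fold change was 0.29 (SE 0.217, 95% interval -0.23 to 0.80, edgeR adjusted p = 0.348). It was 0.18 without MA-10 replicate 1 (edgeR adjusted p = 0.157).

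Hsd17b7 (chr1:169949535-169969241, minus strand) measured 20.9, 13.9 and 12.6 CPM in MA-10 and 30.6, 24.3 and 33.4 CPM in STARKO1. The lines did not overlap, although STARKO1 replicate 2 was only slightly above MA-10 replicate 1. The mean was 15.8 ± 4.47 CPM in MA-10 and 29.5 ± 4.65 CPM in STARKO1, a log2 fold change of 0.90 (SE 0.245, 95% interval 0.32 to 1.48). The unadjusted p was 0.00827 and the edgeR adjusted p 0.0622, so the gene missed the threshold while its interval did not include 0. DESeq2 gave it an adjusted p of 0.0125, and edgeR without MA-10 replicate 1 gave 0.000324 at a log2 fold change of 1.25.

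Ebp, Sc5d and Dhcr7 encode the isomerase, the desaturase and the reductase that shift, add and then remove double bonds in the sterol ring. Ebp (chrX:8185329-8193512, minus strand) measured 29.6, 27.8 and 23.2 CPM in MA-10 and 33.3, 29.8 and 35.6 CPM in STARKO1. Its lines were separated by a narrow gap, with a log2 fold change of 0.29 (SE 0.166, 95% interval -0.10 to 0.68, edgeR adjusted p = 0.231). It was 0.46 without MA-10 replicate 1 (edgeR adjusted p = 0.0151). Sc5d (chr9:42251595-42264256, minus strand) measured 112, 175 and 172 CPM in MA-10 and 178, 150 and 165 CPM in STARKO1. MA-10 replicate 1 was lowest by a wide margin and the other 5 libraries intermixed, so that the log2 fold change was 0.11 (SE 0.220, 95% interval -0.41 to 0.63, edgeR adjusted p = 0.732). Without MA-10 replicate 1 it was 0.02, below the median of 0.06 over all genes in that fit, and without MA-10 replicate 2 or 3 it was 0.21 and 0.20.

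Dhcr7, which encodes 7-dehydrocholesterol reductase and can make the last step to cholesterol, lies at chr7:143823145-143848410 on the plus strand. It measured 72.8, 75.5 and 71.5 CPM in MA-10 and 79.3, 83.9 and 81.9 CPM in STARKO1. Relative to its level, its spread within a line was the narrowest of the 8 enzymes, and the lines did not overlap, but the step between them was small. The log2 fold change was 0.16 (SE 0.136, 95% interval -0.17 to 0.48, edgeR adjusted p = 0.413). It was 0.24 without MA-10 replicate 1 (edgeR adjusted p = 0.0710) and 0.26 without STARKO1 replicate 1 (edgeR adjusted p = 0.418).

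In 6 of the 8 enzymes all 3 STARKO1 libraries lay above all 3 MA-10 libraries, against 21.5% of all genes tested. MA-10 replicate 1 alone lay below all 3 STARKO1 libraries for 8 of 8 enzymes, against 40.6% of genes. Its place within MA-10 differed from enzyme to enzyme. It was the highest MA-10 library for Cyp51, Tm7sf2, Hsd17b7 and Ebp and the lowest for Msmo1, Nsdhl and Sc5d. Without it, 5 of 8 enzymes rose, namely Cyp51, Tm7sf2, Msmo1, Hsd17b7 and Ebp, but 34% of all genes tested rose in that fit by the same edgeR threshold. All 8 enzymes kept a log2 fold change above 0 in each of 16 alternative fits, from 0.02 for Sc5d to 1.38 for Cyp51 and 1.39 for Tm7sf2 at the extremes.

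**Figure D3:**
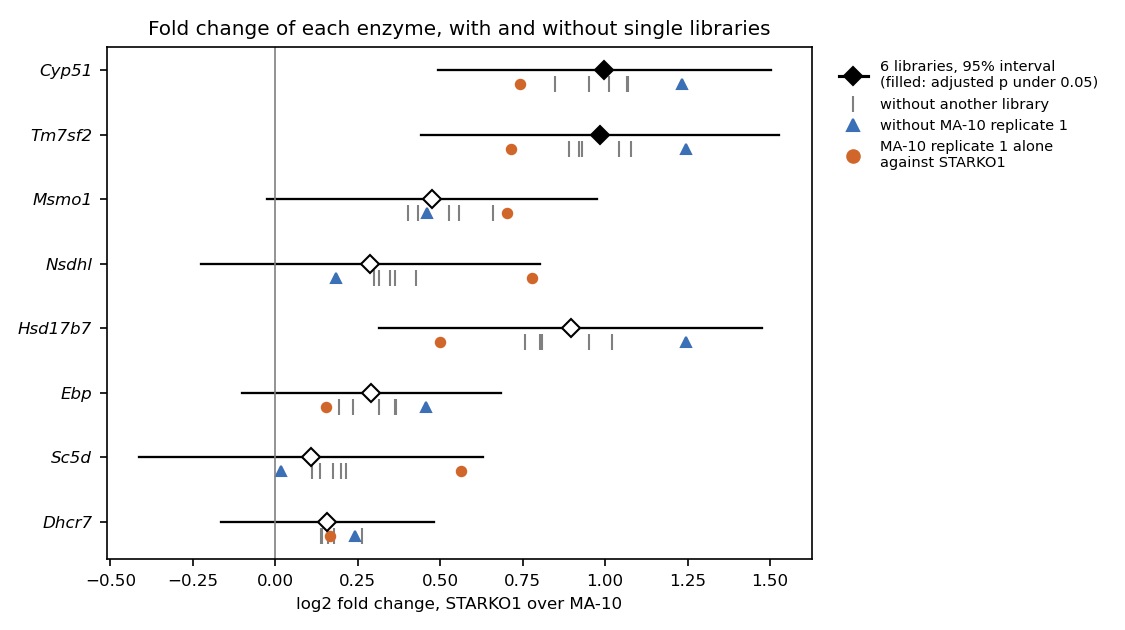
Fold change of each enzyme on the log2 scale with its 95% interval (diamonds, filled at an adjusted p under 0.05), and the estimate with each library left out or with MA-10 replicate 1 as the only MA-10 library. Cyp51, Tm7sf2, Hsd17b7, Ebp and, less far, Dhcr7 move up without MA-10 replicate 1, and Nsdhl and Sc5d move down. Msmo1 hardly moves. The median of all genes also moves up in that fit, by 0.11.

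Per kilobase of exon, so that genes can be compared, the order in MA-10 was Msmo1 at 39.3 CPM per kb, Cyp51 at 36.0, Sc5d at 31.4, Nsdhl at 21.6, Dhcr7 at 12.6, Ebp at 11.6, Hsd17b7 at 3.09 and Tm7sf2 at 0.600. The ranges of neighbours overlapped from Msmo1 down to Nsdhl and between Dhcr7 and Ebp, so that order is not settled. In STARKO1 Cyp51 came first at 72.0 CPM per kb and Msmo1 followed at 54.7, with Sc5d at 33.8, Nsdhl at 26.3, Ebp at 14.2, Dhcr7 just below it, Hsd17b7 at 5.77 and Tm7sf2 at 1.20. There only Ebp and Dhcr7 overlapped. The lengths are those of all annotated exons joined, not of the isoform in use.

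The 8 enzymes together made up 679, 709 and 813 CPM in MA-10 and 1064, 970 and 1094 CPM in STARKO1, or 734 ± 70.1 and 1043 ± 64.7 CPM. As a percentage of all counts, without TMM, they made up 0.0463% to 0.0784% in MA-10 and 0.114% to 0.128% in STARKO1. The share of each enzyme within the sum does not depend on scaling between libraries. That of Cyp51 was 28.0%, 17.5% and 20.0% in MA-10 and 30.3%, 29.9% and 31.1% in STARKO1. Sc5d took 16.4%, 24.6% and 21.1% in MA-10 and 16.8%, 15.5% and 15.1% in STARKO1. The make-up of MA-10 replicate 1 lay close to that of STARKO1 for these 2 genes, while MA-10 replicates 2 and 3 held less Cyp51 and more Sc5d. No 95% Wilson interval of such a share reached over 1.01 percentage points from it, and these intervals cover counting error only.

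**Figure D4:**
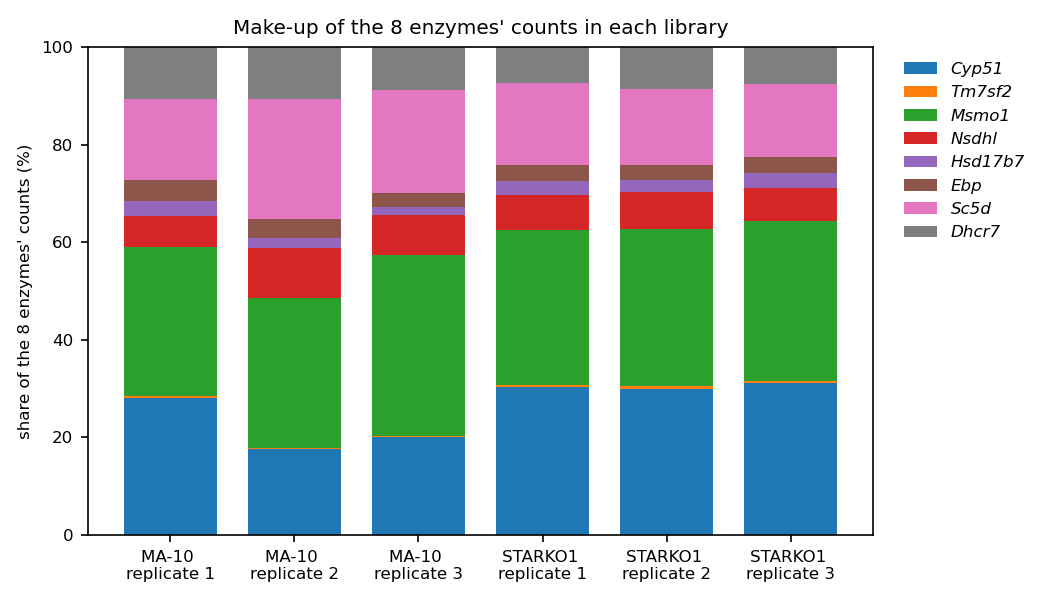
Share of each enzyme in the summed counts of the 8 genes, in percent, for each library. Cyp51 takes 29.9% to 31.1% in STARKO1 and 17.5% to 28.0% in MA-10.

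Counts over those of Dhcr7 in the same library likewise do not depend on scaling. Cyp51 over Dhcr7 was 2.61, 1.65 and 2.27 in MA-10 and 4.07, 3.46 and 4.16 in STARKO1. Tm7sf2 over Dhcr7 was 0.0440, 0.0322 and 0.0320 in MA-10 and 0.0659, 0.0682 and 0.0597 in STARKO1. Hsd17b7 over Dhcr7 was 0.287, 0.184 and 0.176 in MA-10 and 0.386, 0.290 and 0.408 in STARKO1. These 3 ratios did not overlap between the lines, by a thin margin for Hsd17b7, and those of Msmo1, Nsdhl, Ebp and Sc5d did. The share of all genes whose ratio to Dhcr7 does not overlap was not computed, so the ratios are description only. Cyp51 over Msmo1 was 0.920, 0.571 and 0.541 in MA-10 and 0.959, 0.925 and 0.951 in STARKO1. This ratio was lower in MA-10 replicates 2 and 3 than in the other 4 libraries.

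Of the 11 enzymes from acetyl-CoA to lanosterol, edgeR called 0 in either direction, against 9.04% of all genes. At an unadjusted p under 0.05 there were 4 higher and 1 lower. That was so for 37.6% of all genes, and for 15% with STARKO1 higher. DESeq2 called 3 of the 11 higher and 0 lower, where it called 1277 of 14192 genes higher. The median log2 fold change of the 11 by edgeR was 0.34. Sqle, the squalene epoxidase 2 steps before Cyp51, measured 397, 207 and 242 CPM in MA-10 and 628, 611 and 627 CPM in STARKO1. Its log2 fold change of 1.14 had an edgeR adjusted p of 0.0521, just over the threshold. Lss, which makes lanosterol, had a log2 fold change of 0.92 (edgeR adjusted p = 0.0648), and neither gene overlapped between the lines. DESeq2 gave Sqle and Lss adjusted p values of 0.00161 and 0.0120. Leaving out any library other than MA-10 replicate 1 gave edgeR adjusted p values of 0.0920 to 0.207 for Sqle and 0.133 to 0.220 for Lss. Without MA-10 replicate 1 edgeR gave them adjusted p values of 3.97e-05 and 5.56e-05. In that fit 5 of the 11 were called higher and 3 lower, against 34% and 31.7% of all genes.

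Among 11 partner and parallel genes of the post-lanosterol steps, 1 fell and none rose, where 9.04% of all genes were called in either direction. The median log2 fold change of the 11 was -0.08. The one that fell was Ebpl, a relative of Ebp without known isomerase activity, from 17.2 ± 4.61 CPM to 6.81 ± 0.532 CPM (log2 fold change -1.33, SE 0.237, edgeR adjusted p = 0.0247). Of 14 genes of SREBP control and sterol export, 1 rose and none fell, with a median of 0.34. Both counts lie near the share of all genes. The one that rose was Nr1h3, which encodes the oxysterol receptor LXRα, at 7.33, 7.20 and 6.96 CPM in MA-10 and 13.2, 12.1 and 13.3 CPM in STARKO1 (log2 fold change 0.85, SE 0.155, edgeR adjusted p = 0.0262). Srebf2, which encodes SREBP2, had a log2 fold change of 0.44 (edgeR adjusted p = 0.283), and without MA-10 replicate 1 one of 0.91 (edgeR adjusted p = 0.000241). Insig1, which holds the SREBP complex in the endoplasmic reticulum, had -0.06 (edgeR adjusted p = 0.786, and 0.985 without MA-10 replicate 1). The calls of Ebpl and Nr1h3 were kept without MA-10 replicate 1 or 2 and lost without MA-10 replicate 3 or any STARKO1 library, at edgeR adjusted p values of up to 0.148 and 0.161. Without MA-10 replicate 1 the partner genes gave 2 calls higher and 4 lower, and the control genes 8 higher and 2 lower, in a fit that called 34% of all genes higher and 31.7% lower.

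Among 8213 genes with at least 10 CPM, those whose pattern over the 6 libraries was most like the mean of the 8 enzymes included Zmynd8, Etf1, Zfand3 and Gcat. Their centred log2 CPM differed from that mean by a root mean square of 0.0516 to 0.0561, small because they were picked by this measure. For the enzymes, which were not picked by it, the measure was 0.166 for Ebp to 0.306 for Hsd17b7. Log2 fold changes of Zmynd8, Etf1, Zfand3 and Gcat were 0.48 to 0.53. Their edgeR adjusted p values were 0.0613 to 0.0732, so none passed the threshold.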

How the data were processed

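The authors deposited 1 table of estimated counts per gene, unnormalized, for 3 MA-10 and 3 STARKO1 libraries made with a stranded total RNA kit. STAR 2.6.1d, Partek and mm10 come from the submitters' processing notes. Settings, counting program, strand setting and annotation are not given in the sources used here. A value was not whole (tolerance 0.01) in 31.1% of genes, and how reads shared between genes were counted is not given. No row lacked a gene name.

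Counts were rounded and tested in R 4.3.3 with edgeR 4.0.16 (filterByExpr, TMM, glmQLFit, glmQLFTest; limma 3.58.1), with Benjamini-Hochberg adjustment over 11939 genes and a threshold of 0.05; the paper names no test for these counts. The code was tested on simulated data. DESeq2 1.42.0 and other scalings, filters and left-out libraries served as alternatives. Lengths came from GENCODE M21, which matched 14677 of 14774 genes by symbol and chromosome, and start sequences from RefSeq. Tables and figures used Python 3.11.15, pandas 2.3.3, numpy 2.4.6 and matplotlib 3.10.9. A count of 3, the limit that a count of 0 allows, was 0.129 to 0.264 CPM.

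The enzymes and gene lists were chosen with earlier results of these data known. Named genes are the 8 enzymes, called genes of the lists (up to 6 each), Lbr, Srebf2, Insig1, Sqle and Lss whatever their p, and genes of the 5 with the most similar pattern. Some genes that this rule names are not reported here. Akap9 and Vps51 were named for their overlap, and marker genes for their summed levels or for opposite moves within a sum.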

Additional observations from a re-analysis of the deposited data

How the results depend on the processing

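By edgeR, 2 of 8 enzymes were called among 1079 genes in all, and the enzymes' median log2 fold change was 0.38. Upper quartile scaling called 1 enzyme and 829 genes (6.94%), with an enzyme median of 0.54. Scaling by library size alone called 0 enzymes and 330 genes (2.76%), with an enzyme median of 0.86. Of those genes 63.6% were higher, against 47.5% with TMM. An unadjusted p under 0.05 was then found for 8 enzymes and for 29.0% of all genes. These scalings moved the median of all genes by 0.15 and 0.43, and the enzymes' median stood 0.45 and 0.49 above it, against 0.43 with TMM. No filter on low counts called 1 enzyme and 947 genes (6.41%). At least 10 counts in every library gave 2 enzymes and 695 genes (6.44%), and DESeq2 3 enzymes and 3349 genes (23.6%). An adjusted p under 0.01 called 0 of 8 enzymes and 179 of 11939 genes. One under 0.1 called 3 of 8 enzymes and 3471 of 11939 genes.

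After the mean of each line was taken away, same-numbered libraries correlated at -0.0165 to 0.0455, and differently numbered ones at -0.0535 to 0.0382. These values cannot tell whether same-numbered libraries were prepared together, which no source states. With the replicate block 0 enzymes, neither Ebpl nor Nr1h3, and 234 genes were called, and with gene length offsets as well 0 and 240, with 3 enzymes at an unadjusted p under 0.05 in each, as 30.9% and 31.6% of all genes. Leaving out single libraries gave 0 to 5 enzymes and 89 to 7990 genes, 5 and 7990 without MA-10 replicate 1 and 0 enzymes without any other library, where 3 or 4 had an unadjusted p under 0.05, as 21.5% to 28.6% of all genes. MA-10 replicate 1 alone against STARKO1, with its spread taken from STARKO1, called 6 enzymes and 5086 genes (40.5%), with a median of 0.63. Of the 128 alternative values for single enzymes, 18 lost a call, 8 gained one and 0 reversed. Only Cyp51 and Tm7sf2 had a call to lose, with 16 alternatives each. Of the 6 fits without 1 library, 1 called Cyp51 and 1 called Tm7sf2. Of 9 alternative fits with all 6 libraries, 6 called Cyp51 and 4 called Tm7sf2. The causes were not tested. Tm7sf2 rests on 26 to 121 counts a library.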
